A study of Homo sapiens with 12 samples.

Results

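The genes described here are 27 named features of the cholesterol synthesis route, of its regulators and of the ketone thiolases, taken from the 59490 listed features whose name occurs only once. They were picked by gene name and by role in the route: ACAT1 and ACAT2 (thiolases), HMGCS1, MVK, PMVK, MVD and IDI1 (mevalonate steps), FDPS, GGPS1, FDFT1 and SQLE (isoprenoid and squalene steps), LSS, CYP51A1, TM7SF2, MSMO1, NSDHL, HSD17B7, EBP, SC5D and DHCR7 (sterol ring steps), SREBF1, SREBF2, SCAP, INSIG1 and INSIG2 (regulation) and STARD4 (transport). AP001468.1, an antisense transcript lying opposite LSS, is the remaining one. All libraries came from OCI-LY1, an established human diffuse large B-cell lymphoma line. The groups were venetoclax-resistant OCI-LY1R cells given 1 µM decitabine, OCI-LY1R cells given vehicle (DMSO), parental OCI-LY1 cells given 1 µM decitabine and parental OCI-LY1 cells given vehicle, each treated for 3 days and each with 3 libraries of polyadenylated RNA. OCI-LY1R is a single derivative that had been selected with venetoclax, an inhibitor of a BCL2-family survival protein, at concentrations of up to 1 µM. Decitabine is a nucleoside analogue that traps DNA methyltransferases and so lowers DNA methylation. Resistant libraries carry the letters a, b and c for the column numbers 1, 2 and 3 of the table of the resistant line, because those column names taken alone equal titles of parental samples, and parental libraries carry the replicate numbers of the labels.

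Cholesterol is built from acetyl-CoA. Thiolases join acetyl-CoA units into acetoacetyl-CoA, HMGCS1 adds a further unit, and kinases, a decarboxylase and an isomerase turn the mevalonate formed from it into isoprenoid building blocks, which FDPS, GGPS1 and FDFT1 link into farnesyl and geranylgeranyl chains and squalene. The thiolase of the cytosol is ACAT2, whereas ACAT1 works in mitochondria, where it serves the breakdown of isoleucine and both the making and the use of ketone bodies. Transcription of the route is driven by the sterol regulatory element-binding proteins, encoded by SREBF1 and SREBF2, which SCAP escorts out of the endoplasmic reticulum when sterols are low and which INSIG1 and INSIG2 hold there when sterols are high.

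Promoter windows from RefSeq (GRCh38.p14), which run from 250 bases before to 50 bases after an annotated start, were found for 23 of the 27 features, in 32 windows. ACAT2, FDFT1, SQLE and AP001468.1 had no entry. The 3 windows below are those of the gene that was called, of the one gene with a sterol element and of HMGCS1, the first gene past the thiolases, and each is printed 5′ to 3′ on the strand of its gene. In the ACAT1 window (chr11:108121317-108121616, plus strand) capitals mark the 26 CG pairs, the sites where DNA can be methylated. In the SREBF2 window (chr22:41832855-41833154, plus strand) capitals mark the sterol element, the site that sterol regulatory element-binding proteins recognise. In the HMGCS1 window (chr5:43313363-43313662, minus strand) capitals mark 2 NF-Y boxes, CCAAT read on the other strand. A second window of ACAT1, not printed, holds 32 CG pairs, and a second window of HMGCS1, not printed either, holds 0 NF-Y boxes.
ACAT1: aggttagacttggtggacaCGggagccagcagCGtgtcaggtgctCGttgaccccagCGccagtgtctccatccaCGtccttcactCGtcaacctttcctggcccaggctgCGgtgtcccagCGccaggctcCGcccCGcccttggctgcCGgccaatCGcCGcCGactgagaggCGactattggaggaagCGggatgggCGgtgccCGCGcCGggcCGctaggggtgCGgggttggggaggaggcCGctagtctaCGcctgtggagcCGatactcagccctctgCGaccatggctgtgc
SREBF2: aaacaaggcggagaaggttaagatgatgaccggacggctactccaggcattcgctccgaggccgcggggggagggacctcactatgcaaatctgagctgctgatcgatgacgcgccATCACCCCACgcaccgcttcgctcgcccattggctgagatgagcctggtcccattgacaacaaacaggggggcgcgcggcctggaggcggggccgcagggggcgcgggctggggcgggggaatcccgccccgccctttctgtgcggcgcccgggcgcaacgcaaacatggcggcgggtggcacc
HMGCS1: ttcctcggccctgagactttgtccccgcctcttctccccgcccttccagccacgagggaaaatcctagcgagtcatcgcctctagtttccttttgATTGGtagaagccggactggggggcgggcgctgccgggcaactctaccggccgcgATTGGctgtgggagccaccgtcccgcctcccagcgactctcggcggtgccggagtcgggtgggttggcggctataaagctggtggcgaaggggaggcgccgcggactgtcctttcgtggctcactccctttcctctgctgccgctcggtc
CG pairs numbered 12 to 48 in the windows of these genes (median 28), against a median of 14 in all 35116 windows of the table. The sterol element, searched on both strands in the exact form in capitals above, was found in 1 of the 32 windows and in 0.0456% of all windows. The looser form TCACNCCAC, which overlaps it, was found in the same SREBF2 window and in 1.13% of all. Other forms of the element, and sites outside these windows, were not searched for. A gene without a match here is therefore not shown to lack a sterol element. The NF-Y box CCAAT stood in 20 of the 32 windows (62.5%) and in 34.6% of all. Windows of the same gene can overlap. These are matches of letters, and neither methylation nor the binding of a factor was measured. The ACAT1 window also lies opposite an exon of AP002433.1, an antisense transcript whose own start, at 108121684 on chromosome 11, lies 168 bases beyond the ACAT1 start of the GENCODE 29 annotation (108121516).

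Values are TPM, a relative abundance scaled for feature length that sums to 1000000 in every library. Depth is not known from such values, so no counting error is given. A feature is called higher or lower where limma on log2(TPM + 1) gave a Benjamini-Hochberg adjusted p under 0.05 over all features tested. A feature was tested if it averaged 1 TPM or more over the libraries of a fit. Nothing in the labels says that libraries of a group are separate cultures, and the p-values therefore speak only of the spread from library to library. With bulk RNA, fewer cells expressing a gene and less of its RNA per cell cannot be told apart.

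Parental decitabine replicate 3 stood apart from the other 11 libraries for these genes and is given separately throughout. It listed 26 of the 27 features above 0 and 24 at 10 TPM or more, whereas the other 11 listed 10 to 15 of them above 0. Of the 27 features 21 were higher there than in every other library, and 52.9% of the 30960 features above 0 in any library were so too. The B-cell markers MS4A1, CD79A, CD79B, PAX5, CD22 and CD74 summed to 4771 TPM in it and to between 63.4 and 125 TPM in the other 11. Of the germinal-centre markers BCL6, MME and LMO2, LMO2 was listed at 0 in all 11, and the sum was 407 TPM in replicate 3 and 1.04 to 41.5 TPM in the others. Markers of T cells summed to at most 1.99 TPM in any library and those of myeloid cells to at most 1.39 TPM. Those of red cells were at 0 in all 12, and those of fibroblasts and hepatocytes were at 0 in the 11 and at 2.39 and 0.08 TPM in replicate 3.

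Most sterol ring enzymes past LSS were read only in that library. HMGCS1, which makes the precursor of mevalonate, was listed at 41.8 TPM in parental decitabine replicate 3 and at 0 in all 11 others. The same held for the sterol ring enzymes MSMO1 (53.4 TPM in replicate 3), NSDHL (28.4 TPM), HSD17B7 (17.1 TPM), EBP (69.8 TPM) and DHCR7 (114 TPM) and for the retention factor INSIG2 (2.67 TPM). PMVK, TM7SF2 and SC5D were above 0 in 1 of the 11 libraries each, at 0.963, 0.415 and 0.430 TPM, and at 48.0, 62.2 and 7.24 TPM in replicate 3. For 11 of the 27 a ratio of replicate 3 to the median of the 11 could be formed, both being above 0, and the largest of these were those of FDFT1, which joins farnesyl units into squalene (log2 ratio 7.32), SCAP (5.81), SREBF2 (4.37) and CYP51A1 (3.87). ACAT2 and FDPS, at 56.7 and 216 TPM in replicate 3, went the other way and were lower there than in all 11 others. These ratios compare 1 library with 11 and carry no test.

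**Figure D1:**
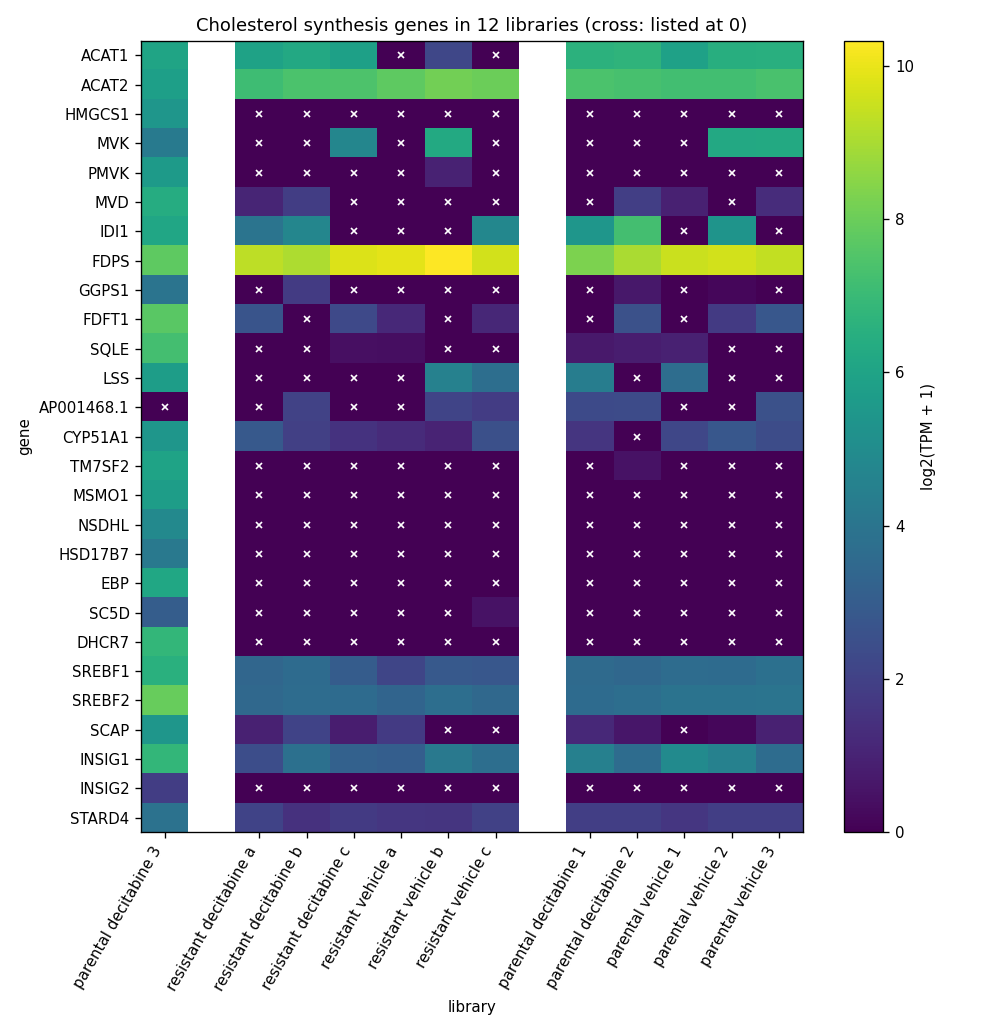
Level of the 27 features in each of the 12 libraries, in log2(TPM + 1) by colour, with a cross where a feature was listed at 0. Parental decitabine replicate 3 stands alone at the left with 26 features above 0, and the rows of HMGCS1, MSMO1, NSDHL, HSD17B7, EBP, DHCR7 and INSIG2 hold crosses in all 11 other libraries.

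For 14 of the 27 features another annotated feature shares exon bases on the opposite strand. Of 11 such features that averaged 5 TPM or more over the 11 libraries, 8 were lower in replicate 3 than in all 11 and 1 was higher. Of all 4951 features with that average, 51.6% were lower there than in all 11 and 19.0% were higher. The average was taken over the 11 libraries alone, which favours lower values in replicate 3. The library kit is strand-specific per the labels' protocols. The setting used to assign strand is not given in the sources used here, so it is not known from which strand a listed level was read. AC114947.2, opposite 15.0% of the exon bases of HMGCS1, was at 0 in replicate 3, whereas the 11 listed it at 234 to 626 TPM. RUSC1-AS1, opposite 18.6% of FDPS, was at 1.37 TPM in replicate 3, whereas the 11 ranged over 640.4 to 1787 TPM. AP002433.1, opposite 2.9% of ACAT1, and AP001469.1, opposite 1.7% of LSS, were both at 0 in replicate 3, and in the 11 they were at 122 to 208 TPM and at 91.4 to 152 TPM. IDI2-AS1, SREBF2-AS1 and STARD4-AS1, opposite IDI1, SREBF2 and STARD4, were at 0.324, 1.47 and 1.09 TPM in replicate 3, and in the 11 they ranged over 59.1 to 108, 47.3 to 70.4 and 23.6 to 374 TPM. SOD2 and TCP1, the coding genes that flank ACAT2 on the opposite strand, were at 25.9 and 139.5 TPM in replicate 3, and the 11 ranged over 38.9 to 94.2 and 66.1 to 130.0 TPM. Whether a level listed for one of these genes in the 11 libraries comes from its own strand was not tested. The results that follow describe values as they are listed.

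**Figure D2:**
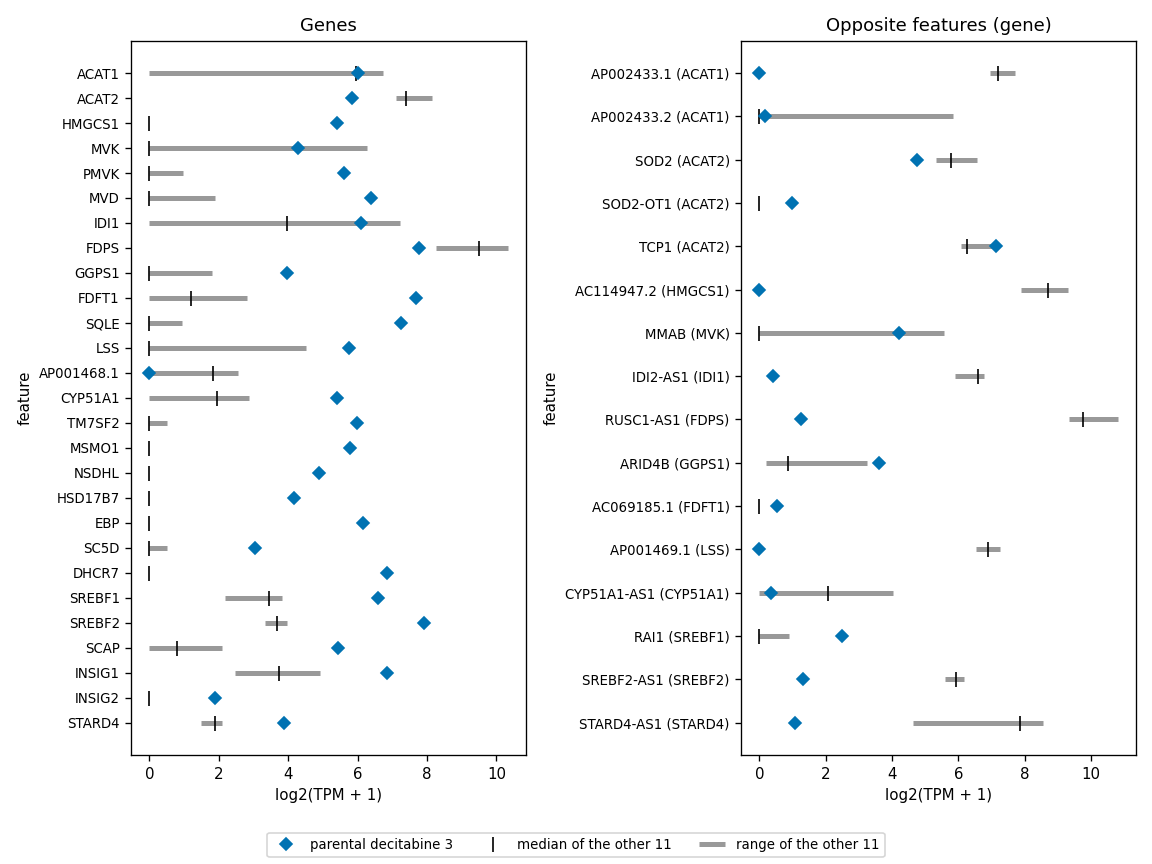
Levels in log2(TPM + 1) of the genes (left) and of the features that share exon bases with them on the opposite strand (right, gene in brackets). Diamonds are parental decitabine replicate 3, bars the range and ticks the median of the other 11 libraries. Of the genes 21 have the diamond to the right of the bar, while AC114947.2 and RUSC1-AS1 have it far to the left.

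Of the 27 features 14 could be tested for decitabine in resistant cells, and 1 of them rose. ACAT1 rose and none fell, where 3.59% of 8579 features tested were called (2.83% rose and 0.758% fell). The median log2 change was 0.06 over the 14 and 0.21 over all features. The 13 others had adjusted p-values from 0.0859 to 0.967. In 3 of the 14 the groups did not overlap (ACAT1 and SREBF1 higher, ACAT2 lower), which was so for 28.4% of all features (19.8% higher and 8.58% lower). Rises made up 78.9% of all calls in this comparison and 64.0% after median-ratio scaling, which moved the median of all features to 0.10, whereas quantile scaling moved it to -0.03.

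In parental cells 14 features were tested for decitabine without replicate 3, and none was called by limma, where 1.86% of 8122 features were (1.38% higher and 0.48% lower). At an unadjusted p under 0.05 there were 2 of the 14, CYP51A1 and FDPS, both lower under decitabine, and 18.0% of all features. The groups did not overlap for 6 of the 14 (ACAT1 and IDI1 higher, CYP51A1, FDPS, SREBF1 and SREBF2 lower) and for 39.4% of all features (27.9% higher and 11.6% lower). The median log2 change was -0.04 over the 14 and 0.21 over all features.

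The values of each line were deposited apart, so a difference between lines cannot be told apart from one in processing. Between lines under vehicle 13 features were tested, and ACAT1 was lower in resistant cells. Of all 7761 features tested 2.8% were called (1.73% higher and 1.07% lower). In 5 of the 13 the groups did not overlap (ACAT2 and FDPS higher, ACAT1, SREBF1 and SREBF2 lower in resistant cells), as in 28.1% of all features (17.8% higher and 10.2% lower). The median log2 difference was -0.42 over the 13 and 0.11 over all features. Higher values made up 61.8% of all calls between lines, and 46.4% after median-ratio scaling, with medians of all features at -0.02 after that scaling and 0.01 after quantile scaling. The decitabine responses of the lines differed for 1 of 13 features tested, again ACAT1, where 0.364% of 8505 features were called (0.188% higher and 0.176% lower). The resistant vehicle libraries enter the comparison with decitabine, that between lines and that of the responses alike, so the 3 results for ACAT1 share them.

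ACAT1 (chromosome 11, 108121516 to 108147776, plus strand, GRCh38), the mitochondrial acetoacetyl-CoA thiolase, was nearly unread in resistant cells under vehicle and was read in all other libraries. Its level was 61.6, 74.2 and 56.9 TPM in resistant decitabine libraries a, b and c, against 0, 3.61 and 0 TPM in resistant vehicle libraries a, b and c. It was 99.0 and 105 TPM in parental decitabine replicates 1 and 2, against 59.5, 88.0 and 91.1 TPM in parental vehicle replicates 1 to 3, and 63.8 TPM in parental decitabine replicate 3. The resistant vehicle libraries thus lay below all 9 others, and no other library was under 56.9 TPM. On the log2(TPM + 1) scale ACAT1 rose by 5.28 with decitabine in resistant cells (SE 0.64, limma adjusted p = 0.0196, higher in 3 of 3 libraries). It was lower by 5.57 in resistant than in parental cells under vehicle (log2 difference -5.57, SE 0.66, adjusted p = 0.0216). The rise in parental cells was 0.38 (SE 0.23, limma adjusted p = 0.431), and the difference of the responses was 4.90 (SE 0.79, adjusted p = 0.0496). Because 2 of the 3 resistant vehicle values are at 0, these log2 sizes depend on the pseudocount.

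The calls for ACAT1 did not hold in every alternative fit. With a pseudocount of 0.1 TPM the log2 rise in resistant cells was 7.58 and the limma adjusted p 0.0565. Without resistant vehicle c, or without resistant decitabine a, b or c, the adjusted p of that rise was 0.0577, 0.0725, 0.0672 and 0.0681. For the difference between lines it was 0.0742, 0.088 and 0.0846 without parental vehicle 1, 2 or 3, and 0.0737 without resistant vehicle c. For the difference of the responses it lay between 0.0614 and 0.126 without any 1 library other than resistant vehicle b, and at 0.282 with parental decitabine replicate 3 included. The direction of all 3 was the same in all of these fits.

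AP002433.1 (chromosome 11, 108105074 to 108121684, minus strand), whose exon crosses the start of ACAT1, was highest in the group where ACAT1 was lowest. It was at 138, 129 and 126 TPM in resistant decitabine libraries, against 202, 175 and 208 TPM in resistant vehicle libraries. In parental cells it was at 145 and 168 TPM under decitabine, against 129, 122 and 149 TPM under vehicle. The resistant groups did not overlap, but the log2 change of -0.57 (SE 0.12) had a limma adjusted p of 0.0721, and 0.0469 after median-ratio scaling. Between lines under vehicle the log2 difference of AP002433.1 was 0.55 (SE 0.13, limma adjusted p = 0.0937), which was not called. With decitabine in parental cells AP002433.1 and ACAT1 had log2 changes of 0.23 and 0.38, both upward and neither called. Any relation between these features was not tested. AP002433.2, at the far end of ACAT1 on the minus strand, was listed at 56.0, 11.7 and 6.53 TPM in parental vehicle libraries and at 0 in the other 8 of the 11.

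ACAT2 (chromosome 6, 159760328 to 159779055, plus strand), the cytosolic thiolase at the entry to the mevalonate route, was read in all 12 libraries. It was at 137, 168 and 171 TPM in resistant decitabine libraries, against 217, 279 and 260.0 TPM in resistant vehicle libraries. Parental cells had 167 and 159.9 TPM under decitabine, against 146, 146 and 162 TPM under vehicle. The resistant vehicle libraries were the highest of all, and the other 8 of the 11 lay between 137 and 171 TPM. The log2 change with decitabine in resistant cells was -0.66 (SE 0.16, limma adjusted p = 0.0859), and the difference between lines was 0.73 (SE 0.13, adjusted p = 0.0561). Neither passed the threshold as fitted. The first did after median-ratio scaling (adjusted p = 0.0458), and the second did among features averaging 5 TPM or more (0.0414) and without resistant vehicle a (0.0443).

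TCP1, a subunit of the cytosolic chaperonin that folds actin and tubulin, shares 9.2% of the exon bases of ACAT2 from the opposite strand, and among the 11 libraries it too was highest under vehicle in resistant cells. It was at 66.9, 82.2 and 66.1 TPM in resistant decitabine libraries, against 123, 124 and 130.0 TPM in resistant vehicle libraries. Its parental values were 84.0 and 74.9 TPM under decitabine, against 68.1, 74.3 and 72.9 TPM under vehicle. TCP1 fell with decitabine in resistant cells (log2 change -0.81, SE 0.14, limma adjusted p = 0.0435) and was higher in resistant than in parental cells under vehicle (0.80, SE 0.10, adjusted p = 0.025). The fall was not called after quantile scaling (adjusted p = 0.0503), without any filter (0.118) or without any 1 of the 6 libraries (0.0613 to 0.132). The difference between lines was not called after quantile scaling (0.0545), without any filter (0.0613) or without any 1 library other than resistant vehicle a (0.0534 to 0.0947). SOD2, which shares 26.5% of the exon bases of ACAT2, was at 63.3, 55.8 and 53.3 TPM in resistant decitabine libraries, against 94.2, 70.6 and 53.8 TPM in resistant vehicle libraries.

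**Figure D3:**
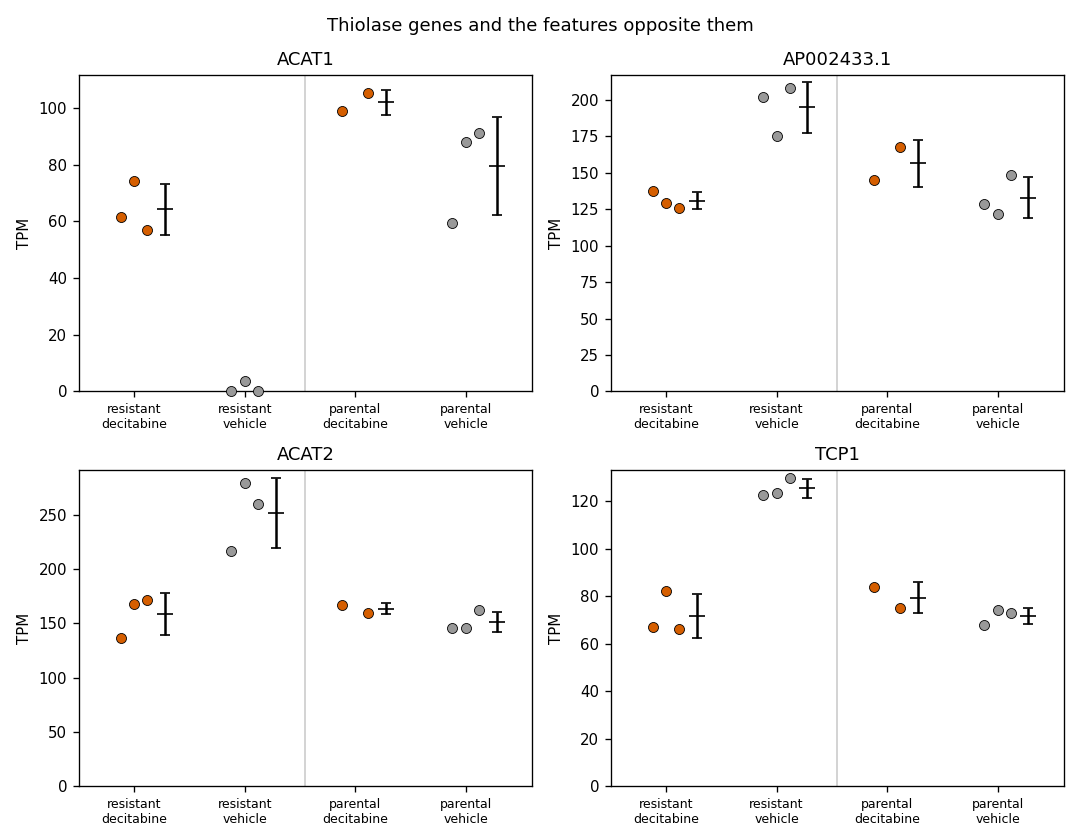
TPM of ACAT1 and ACAT2 (left) and of the features opposite them, AP002433.1 and TCP1 (right), in the 4 groups without parental decitabine replicate 3. Points are libraries, and bars are the mean with its SD (n = 3, and n = 2 for parental decitabine), left out where a library was listed at 0. ACAT1 in resistant vehicle libraries sits at 0, 3.61 and 0 TPM, below all other libraries, while ACAT2, AP002433.1 and TCP1 are highest there.

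Among the mevalonate steps, MVK and IDI1 switched between 0 and more than 10 TPM within groups. MVK, the kinase that acts on mevalonate, was at 0, 0 and 25.7 TPM in resistant decitabine libraries, against 0, 76.6 and 0 TPM in resistant vehicle libraries. In the parental line it stood at 0 in both decitabine replicates 1 and 2, against 0, 73.3 and 75.9 TPM under vehicle, and it was at 18.4 TPM in parental decitabine replicate 3. MMAB, a cobalamin enzyme gene that starts head to head with MVK and shares exon bases with it, was above 0 in none of the 4 libraries of the 11 in which MVK was read. It was at 33.9 TPM in resistant decitabine b and at 46.2 and 44.1 TPM in resistant vehicle a and c, and replicate 3 listed both genes, MMAB at 17.5 TPM. MVK was called as lower under decitabine in parental cells in 1 of the alternative fits, that without parental vehicle 1 (limma adjusted p = 0.0335, against 0.387 with it).

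IDI1, the isomerase that interconverts the isoprenoid units, was at 14.7, 25.4 and 0 TPM in resistant decitabine libraries, against 0, 0 and 26.8 TPM in resistant vehicle libraries. It was at 41.7 and 149 TPM in parental decitabine replicates 1 and 2, against 0, 39.6 and 0 TPM in parental vehicle libraries. Both parental decitabine libraries lay above the vehicle libraries, with a limma adjusted p of 0.315. IDI2-AS1, which shares 14.8% of its exon bases, was read in all 11, between 59.1 and 108 TPM. MVD, which removes a carboxyl group from phosphorylated mevalonate, reached at most 2.74 TPM in the 11 libraries and 82.2 TPM in parental decitabine replicate 3.

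FDPS (chromosome 1, 155308748 to 155320666, plus strand), which makes farnesyl pyrophosphate, had the highest level of the 27 in each of the 11 libraries. FDPS has processed pseudogenes, and how reads shared with them were assigned is not given in the sources used here. It was at 623, 525 and 883 TPM in resistant decitabine libraries, against 951, 1285 and 792 TPM in resistant vehicle libraries. In parental cells it was at 308 and 513 TPM under decitabine, against 727, 787 and 664 TPM under vehicle. The resistant groups overlapped and the parental ones did not. The log2 change with decitabine was -0.58 (SE 0.26, limma adjusted p = 0.282) in resistant cells and -0.86 (SE 0.24, adjusted p = 0.184) in parental cells, and the responses differed by 0.28 (SE 0.39, adjusted p = 0.838). FDPS averaged 1009 ± 252 TPM in resistant and 726 ± 61.3 TPM in parental cells under vehicle (SD, n = 3 each), a log2 difference of 0.45 (SE 0.19, limma adjusted p = 0.279).

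RUSC1-AS1 (chromosome 1, 155316863 to 155324176, minus strand), opposite the 3′ part of FDPS, fell with decitabine in resistant cells. It was at 640.4, 656 and 725 TPM in resistant decitabine libraries, against 1477, 1787 and 1626 TPM in resistant vehicle libraries. Parental cells had 781 and 1232 TPM under decitabine, against 824, 855 and 922 TPM under vehicle. Resistant vehicle libraries were thus above all other libraries. The log2 change in resistant cells was -1.27 (SE 0.11, limma adjusted p = 0.0084), and this call held in 12 of 13 alternative fits (adjusted p at most 0.0391), the exception being the fit with a block for the column number (0.0745). RUSC1-AS1 was higher in resistant than in parental cells under vehicle (log2 difference 0.91, SE 0.10, adjusted p = 0.0189), but not without parental vehicle 1, 2 or 3 (0.0776, 0.0833 and 0.0639) or resistant vehicle c (0.0762). The responses of the lines differed by -1.45 (SE 0.24, adjusted p = 0.0496), a call lost without any 1 resistant or parental vehicle library and without any 1 resistant decitabine library (0.0548 to 0.122), with a pseudocount of 0.1 (0.051) and with no filter (0.0882). With parental decitabine replicate 3 included that difference turned to 1.45 (adjusted p = 0.773). RUSC1-AS1 was the only feature opposite one of the 27 to be called for the difference of the responses, of 13 tested, where 0.364% of 8505 features were called. AC114947.2 and TCP1 had differences of the same sign, -1.17 and -0.95, and were not called (limma adjusted p = 0.0625 and 0.0845).

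**Figure D4:**
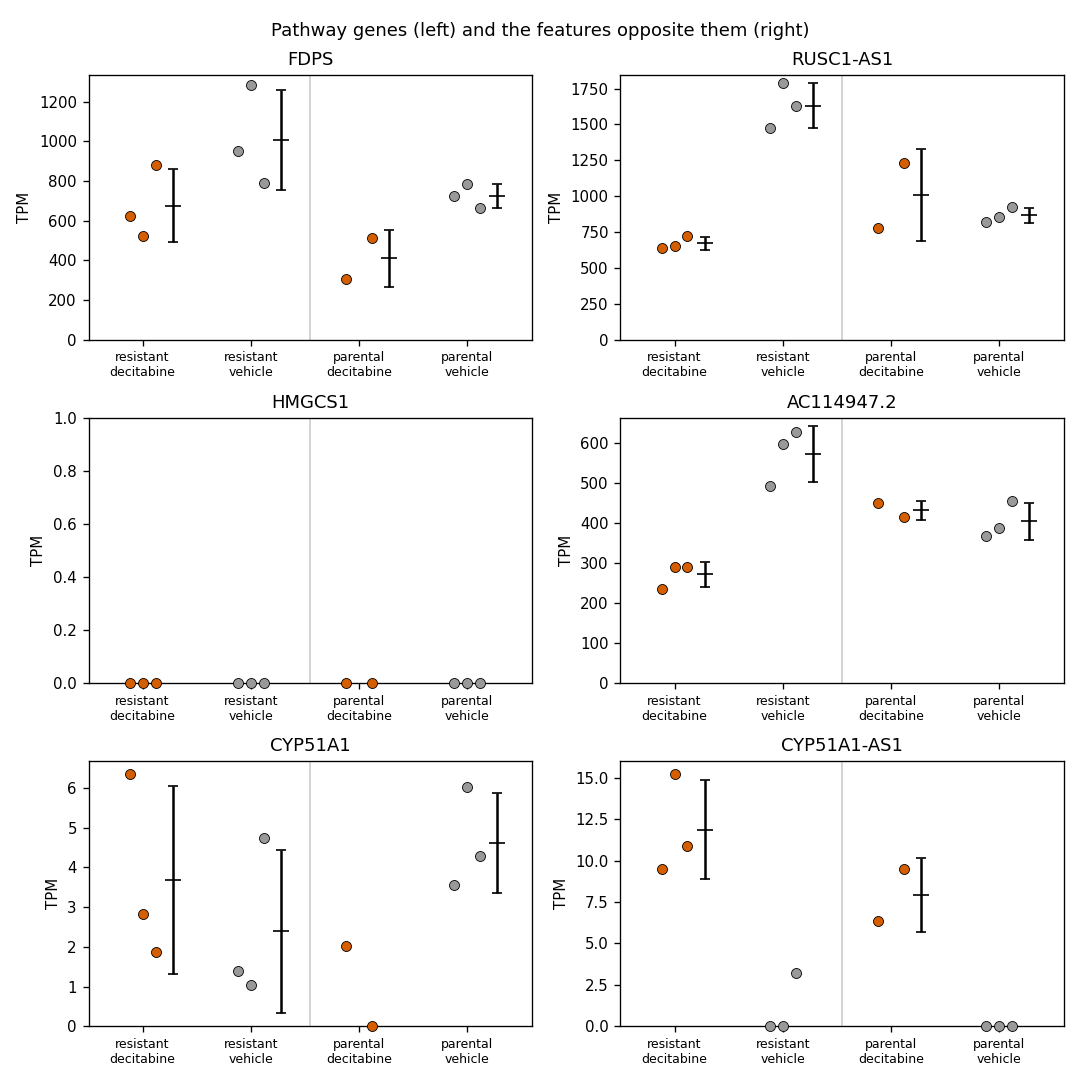
TPM of FDPS, HMGCS1 and CYP51A1 (left) and of RUSC1-AS1, AC114947.2 and CYP51A1-AS1 opposite them (right) in the 4 groups without parental decitabine replicate 3. Points are libraries, and bars are the mean with its SD (n = 3, and n = 2 for parental decitabine), left out where a library was listed at 0. RUSC1-AS1 at 1477 to 1787 TPM and AC114947.2 at 493 to 626 TPM are highest in resistant vehicle libraries, and HMGCS1 lies at 0 in all 11.

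AC114947.2 (chromosome 5, 43287601 to 43290839, plus strand), opposite the 3′ part of HMGCS1, also fell with decitabine in resistant cells. It was at 234, 289 and 289 TPM in resistant decitabine libraries, against 493, 596 and 626 TPM in resistant vehicle libraries. Its parental values were 449 and 414 TPM under decitabine, against 368, 388 and 455 TPM under vehicle. The resistant groups were separate and the parental ones overlapped. The log2 change in resistant cells was -1.07 (SE 0.15, limma adjusted p = 0.0271). It was not called with no filter (adjusted p = 0.0627), without resistant vehicle b or c (0.0775 and 0.0881) or without resistant decitabine a, b or c (0.0729, 0.0667 and 0.0706). The difference of the responses was -1.17 (SE 0.20, adjusted p = 0.0625). HMGCS1 itself, at 0 in these libraries, could not be tested.

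In all, 12 features opposite the 27 were tested in resistant cells, and RUSC1-AS1, AC114947.2 and TCP1 fell while none rose, where 0.758% of all features fell and 2.83% rose. In parental cells 1 of 12 was called, against 1.86% of all features. It was CYP51A1-AS1, which was at 6.37 and 9.52 TPM in decitabine replicates 1 and 2, against 0 in all 3 vehicle libraries (limma adjusted p = 0.0342). It passed the filter only through the decitabine libraries, so its call, a rise, was favoured by the filter. That call was lost without parental vehicle 1, 2 or 3 (0.117, 0.122 and 0.103), with a pseudocount of 0.1 (0.0567), with no filter (0.11) and with replicate 3 included (0.594). In resistant cells CYP51A1-AS1 was at 9.50, 15.2 and 10.9 TPM under decitabine, against 0, 0 and 3.24 TPM under vehicle, with a limma adjusted p of 0.0727, and 0.0283 without resistant vehicle c. It shares 3.9% of the exon bases of CYP51A1, the sterol demethylase, with which it starts head to head.

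GGPS1, FDFT1 and SQLE, which make geranylgeranyl units, squalene and its epoxide, stayed at or below 6.04 TPM in the 11 libraries and were at 14.7, 206 and 151 TPM in parental decitabine replicate 3. FDFT1 was at 5.45, 0 and 3.86 TPM in resistant decitabine libraries, against 1.29, 0 and 1.25 TPM in resistant vehicle libraries. In the parental line it stood at 0 and 4.91 TPM under decitabine, against 0, 2.42 and 6.04 TPM under vehicle. The groups of FDFT1 overlapped in both lines. ARID4B, a chromatin gene whose start lies opposite that of GGPS1, was at 0.140 to 8.40 TPM in the 11.

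LSS, which closes squalene epoxide into the first sterol, switched between 0 and 10 TPM or more within groups, as MVK and IDI1 did. It was at 0 in all 3 resistant decitabine libraries, against 0, 22.0 and 12.3 TPM in resistant vehicle libraries. In parental cells it was at 19.7 and 0 TPM under decitabine, against 12.1, 0 and 0 TPM under vehicle, and it was at 52.5 TPM in parental decitabine replicate 3. The limma adjusted p in resistant cells was 0.27, but without resistant vehicle a, the vehicle library at 0, LSS was called as lower (0.0236).

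AP001468.1 (chromosome 21, 46185079 to 46188941, plus strand) has 80.4% of its exon bases opposite LSS (46188141 to 46228824, minus strand). It was at 0, 3.13 and 0 TPM in resistant decitabine libraries, against 0, 3.36 and 2.56 TPM in resistant vehicle libraries. Parental cells had 4.05 and 4.19 TPM under decitabine, against 0, 0 and 4.86 TPM under vehicle. It was the only one of the 27 listed at 0 in parental decitabine replicate 3. LSS and AP001468.1 were both above 0 in resistant vehicle b and c and in parental decitabine 1. AP001468.1 was above 0 with LSS at 0 in 3 libraries of the 11, and LSS above 0 with AP001468.1 at 0 in 1.

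CYP51A1, the only sterol ring enzyme past LSS that was read in most of the 11 libraries, was at 6.36, 2.83 and 1.86 TPM in resistant decitabine libraries, against 1.39, 1.03 and 4.75 TPM in resistant vehicle libraries. Its parental values were 2.03 and 0 TPM under decitabine, against 3.56, 6.01 and 4.28 TPM under vehicle, and it was at 41.5 TPM in replicate 3. The parental groups did not overlap, with a log2 change of -1.67 (SE 0.58, limma adjusted p = 0.249). TM7SF2, a sterol reductase, starts head to head with AP003068.1. That antisense transcript, named here after its values were seen, was at 331, 370.2 and 394 TPM in resistant decitabine libraries, against 558, 599 and 578 TPM in resistant vehicle libraries. In parental cells it was at 393 and 465 TPM under decitabine, against 586, 625 and 649 TPM under vehicle, and at 0.479 TPM in parental decitabine replicate 3. The groups did not overlap in either line, which was so for 28.4% of all features in resistant and 39.4% in parental cells. AP003068.1 shares no exon bases with TM7SF2, and no test result is given for it.

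SREBF1 and SREBF2, the transcription factor genes, were read in all 12 libraries at low levels in the 11. SREBF1 was at 9.50, 11.4 and 6.97 TPM in resistant decitabine libraries, against 3.50, 6.41 and 6.06 TPM in resistant vehicle libraries. In the parental line it stood at 11.04 and 9.81 TPM under decitabine, against 11.4, 11.3 and 13.1 TPM under vehicle, and it was at 94.2 TPM in replicate 3. Resistant vehicle libraries were thus below all others. The log2 change with decitabine in resistant cells was 0.71 (SE 0.32, limma adjusted p = 0.282), and the difference between lines was -1.06 (SE 0.27, adjusted p = 0.114), so neither passed the threshold.

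SREBF2 varied less. It was at 10.3, 11.7 and 11.1 TPM in resistant decitabine libraries, against 9.10, 12.2 and 10.1 TPM in resistant vehicle libraries. In parental cells it was at 11.1 and 12.3 TPM under decitabine, against 14.4, 14.1 and 14.5 TPM under vehicle. All 3 parental vehicle libraries lay above the other 8 of the 11, and parental decitabine replicate 3 was at 241 TPM. The log2 change with decitabine was 0.07 (SE 0.21, limma adjusted p = 0.88) in resistant cells and -0.28 (SE 0.17, adjusted p = 0.44) in parental cells.

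The escort and retention genes were lower still or uneven. SCAP was between 0 and 3.25 TPM in the 11 libraries and at 42.0 TPM in parental decitabine replicate 3. INSIG1 was at 4.50, 13.2 and 8.14 TPM in resistant decitabine libraries, against 7.40, 17.3 and 12.4 TPM in resistant vehicle libraries. Parental cells had 21.8 and 11.7 TPM under decitabine, against 29.4, 22.4 and 11.7 TPM under vehicle, and it was at 115 TPM in replicate 3. The groups of INSIG1 overlapped in each comparison. STARD4, which carries sterols between membranes, lay between 1.81 and 3.25 TPM in the 11, with log2 changes of 0.04 (SE 0.33) in resistant and 0.10 (SE 0.28) in parental cells.

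A further list of 63 genes covers sterol uptake, storage and efflux, fatty acid synthesis, prenylation, ubiquinone synthesis and ketone metabolism. In resistant cells 27 of them were tested for decitabine, 1 rose and 1 fell (3.59% of all features were called), and their median log2 change was -0.00, against 0.21 over all features. In parental cells 27 were tested and none was called by limma, where 1.86% of all features were. At an unadjusted p under 0.05 there were 5 of the 27 and 18.0% of all features. Between lines 27 were tested and 1 was lower in resistant cells, where 1.07% of all features were lower. For the difference of the responses 29 were tested and none was called by limma, where 0.364% of all features were, with 2 of the 29 and 10.1% of all features at an unadjusted p under 0.05. The list's shares at an unadjusted p lie near or below those of all features.

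FADS1, a desaturase of polyunsaturated fatty acids, fell with decitabine in resistant cells. It was at 158, 176 and 129.8 TPM in resistant decitabine libraries, against 362, 560.1 and 410.3 TPM in resistant vehicle libraries. Its parental values were 334 and 331 TPM under decitabine, against 506, 484 and 543 TPM under vehicle, and it was at 27.3 TPM in replicate 3. The groups did not overlap in either line. The log2 change was -1.50 (SE 0.21, limma adjusted p = 0.0271) in resistant and -0.62 (SE 0.09, adjusted p = 0.054) in parental cells, with a difference of -0.89 (SE 0.25, adjusted p = 0.244). In resistant cells the call was lost with no filter (0.0589), without resistant vehicle c (0.0813) and without resistant decitabine a, b or c (0.0858, 0.0621 and 0.0779). In parental cells FADS1 was called after median-ratio (0.0298) and quantile scaling (0.0347).

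FADS2, the neighbouring desaturase, which shares 490 exon bases with FADS1 on the opposite strand, was at 53.8, 39.6 and 31.8 TPM in resistant decitabine libraries, against 75.8, 122 and 82.1 TPM in resistant vehicle libraries. Its log2 change of -1.15 (SE 0.28) had a limma adjusted p of 0.0909. Parental libraries had 80.5 and 81.1 TPM under decitabine, against 108, 124 and 120.5 TPM under vehicle (log2 change -0.53, SE 0.11, limma adjusted p = 0.108). The groups of FADS2 did not overlap in either line. FADS2 was at 243 TPM in parental decitabine replicate 3, above all 11 others, while FADS1 was below all 11. FADS2 was not called and is named for its overlap with FADS1.

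NR1H2, a sterol-sensing nuclear receptor that drives cholesterol efflux genes, rose with decitabine in resistant cells. It was at 6.19, 5.57 and 6.33 TPM in resistant decitabine libraries, against 0.668, 0 and 0.424 TPM in resistant vehicle libraries. The log2 change was 2.40 (SE 0.33, limma adjusted p = 0.0271). NR1H2 averaged 0.364 TPM in resistant vehicle libraries, so it passed the filter only through the decitabine libraries, which favours a called rise. The call was lost with a pseudocount of 0.1 (0.0717), with no filter (0.0831), after quantile scaling (0.0656), without resistant vehicle b or c (0.0605 and 0.0812) and without resistant decitabine a, b or c (0.0866, 0.0726 and 0.08). In the parental line it stood at 2.50 and 1.11 TPM under decitabine, against 0.361, 0 and 3.34 TPM under vehicle, and at 35.1 TPM in replicate 3.

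SCP2, whose products are a peroxisomal thiolase and a sterol carrier, was lower in resistant than in parental cells. Under vehicle it was at 0.526, 0.582 and 0.957 TPM in resistant libraries, against 8.63, 7.30 and 9.66 TPM in parental libraries. The log2 difference was -2.50 (SE 0.27, limma adjusted p = 0.0183). The resistant vehicle libraries averaged 0.688 TPM, so SCP2 passed the filter only through the parental libraries, which favours a call as lower in resistant cells. The call was lost with no filter (0.0508) and without parental vehicle 1, 2 or 3 (0.0776, 0.0686 and 0.0781). Under decitabine SCP2 was at 0.347, 0.849 and 0.193 TPM in resistant libraries, against 8.48 and 7.40 TPM in parental replicates 1 and 2 and 44.1 TPM in parental replicate 3. ACAT1 was likewise lower in resistant cells under vehicle, but unlike ACAT1 the SCP2 level stayed below 1 TPM in the resistant decitabine libraries.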

How the data were processed

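RNA of 12 OCI-LY1 libraries, 3 in each of 4 groups, was analysed as deposited. Tools named in the submitters' processing notes are HISAT2, StringTie and DESeq2, with genome build hg38, and neither versions nor annotation nor strand setting are stated there. The deposited tables name no unit; they were taken to be TPM that the authors scaled within libraries, since each library sums to 1000000. The design allowed for counts or normalised values, and the branch for normalised values was used.

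Parental columns were matched to samples by title and resistant columns to groups, with their column numbers given as letters. Features with a name that occurs once (59490, with 1166 others left out) and an average of 1 TPM or more over the fitted libraries entered limma 3.58.1 (trend, R 4.3.3) as log2(TPM + 1), 2-sided, with Benjamini-Hochberg adjustment over all features. The filter passed 13 or 14 of the 27 genes, so counts over those tested do not stand for all 27. Each fold is on that scale and understates change at low TPM. A value of 0 is given as listed at 0. The fits were also run on simulated data with known changes, where the only condition set was that no recovered change had the wrong sign. Those changes were planted in features averaging well above 0, so the run does not cover genes listed at 0 in some libraries.

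Positions and opposite-strand exons are from GENCODE 29 (GRCh38), and promoter windows from RefSeq (GRCh38.p14). Features starting within 2000 bases on the other strand were called head to head. Genes were named by a rule: genes called in any comparison, those averaging 10 TPM or more in the 11 libraries, the 4 with the largest ratio of parental decitabine replicate 3 to the median of the 11, called genes of the further list, and opposite features averaging 5 TPM or more. Other genes of the 27 were added for completeness after their values were seen. Members, lists and the separation of replicate 3 were chosen with earlier results of these data known.

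Alternatives were a pseudocount of 0.1, no filter, an average of 5 TPM or more, quantile and median-ratio scaling, an adjusted p under 0.01, leaving out each library in turn, including parental decitabine replicate 3 in the fits that lack it, and a block for the replicate or column number within each line. The marker sums leave out 2 listed marker genes that are not reported here.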

Additional observations from a re-analysis of the deposited data

Results flagged for a closer look

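The response of ACAT1 to decitabine differed between the lines. The difference of the log2 changes, resistant minus parental, was 4.90 (SE 0.79, limma adjusted p = 0.0496), with changes of 5.28 in resistant and 0.38 in parental cells. It rests on 2 of 3 resistant vehicle libraries listed at 0 and was lost in 15 of 18 alternative fits. AP002433.1 opposite its start was at 126 to 138 TPM in resistant decitabine libraries and at 175 to 208 TPM in resistant vehicle libraries, and its part in the result was not tested.

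The response of RUSC1-AS1, opposite FDPS, differed too, by -1.45 (SE 0.24, limma adjusted p = 0.0496), with log2 changes of -1.27 in resistant and 0.18 in parental cells. It was lost in 12 of 18 alternative fits, and with parental decitabine replicate 3 included it turned to 1.45 (adjusted p = 0.773). FDPS moved by -0.58 and -0.86 in the same order, and the difference for FDPS was not called.

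Parental decitabine replicate 3, which the comparisons leave out, listed 21 of the 27 genes above every other library. The same held for 52.9% of the 30960 features above 0 in any library. The 7 genes at 0 in all 11 others ranged over 2.67 to 114 TPM in replicate 3.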

How the results depend on the processing

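The only feature of the 27 called as fitted, in any comparison, was ACAT1, the mitochondrial thiolase. In resistant cells decitabine called 1 feature, and 0 with a pseudocount of 0.1 or an adjusted p under 0.01. It called 2 after median-ratio scaling (ACAT1, and ACAT2 as lower), and 0 to 2 without 1 library. Between lines 1 was called, 0 with a pseudocount of 0.1 or an adjusted p under 0.01, 2 with a mean of at least 5 TPM (ACAT1 and ACAT2), and 0 to 2 without 1 library. For the difference of the responses 1 was called, and 0 with a pseudocount of 0.1, no filter, quantile scaling, an adjusted p under 0.01 or replicate 3 included, and 0 to 1 without 1 library. In parental cells 0 were called, 0 to 1 without 1 library (MVK as lower without vehicle 1) and 0 with replicate 3 included. The values of neither line showed a pairing by replicate number, but such values cannot tell how the cultures were set up. Correlations of deviations were -0.006, 0.031 and 0.036 in resistant cells, where decitabine a correlated best with vehicle b, and -0.011 and -0.012 in parental cells. The deviations of the 2 parental decitabine libraries mirror each other, so the 2 parental correlations are not independent. With the replicate block 0 of the 27 and 2 of all 8579 features were called by limma in resistant cells, in place of 1 and 308. At an unadjusted p under 0.05 there were 1519 of the 8579. The calls of ACAT1, RUSC1-AS1, AC114947.2, TCP1, FADS1 and NR1H2 were lost (limma adjusted p from 0.0745 to 0.1695). In parental cells with the block 0 of the 27 and 0 of all 8122 features were called by limma, in place of 0 and 151. At an unadjusted p under 0.05 there were 978 of the 8122. A block also leaves less information for estimating the spread. In resistant cells the SE of ACAT1 was 0.51 with the block and 0.64 without it, and that of TCP1 was 0.15 and 0.14. Leaving out a parental decitabine library leaves 1, which is assumed to vary like the others.

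With replicate 3 included the difference of the responses turned for RUSC1-AS1 (1.45, adjusted p = 0.773), AC114947.2 (1.74, adjusted p = 0.736) and FADS1 (0.30, adjusted p = 0.906). Of 433 alternative values over 32 results for single genes, 319 kept direction and side of the threshold, 102 lost the call, 9 gained one and 3 turned. The cause was not tested.

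Counts over all features moved as well. With no filter 73 were called in resistant cells in place of 308, 35 in parental cells in place of 151, 68 between lines in place of 217 and 7 for the difference in place of 31. At an adjusted p under 0.01 there were 39, 23, 37 and 6. Quantile scaling gave 189 in resistant cells. A mean of at least 5 TPM gave 194 there. Without 1 library the counts ranged over 90 to 197, 14 to 264, 58 to 191 and 12 to 47, and with replicate 3 included there were 0 in parental cells (of 13778, with 262 at an unadjusted p under 0.05) and 1 for the difference. A count test could not be run on TPM, and depth is unknown, so levels near 0 carry no counting limit.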
